A study of Drosophila melanogaster with 24 samples.

Results

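Transcription start sites of tinmDPE and tinWT embryos of Drosophila melanogaster were compared in the first collection window, 0-2 h, using 1 promoter start site per gene. The comparison used the promoter row with the highest mean over the 3 libraries of that window for each gene name, and kept a gene where that mean was at least 4. This left 7022 genes of the 10709 that had a promoter row, taken from 45839 merged start sites in all. Of the 7022 genes, 6450 stood at 4 or more in all 3 libraries, 336 stood below 4 in tinWT, and 25 stood below 4 in both tinmDPE libraries. Because the mean holds 2 tinmDPE libraries and 1 tinWT library, the filter admits a gene that is high in tinmDPE more readily than a gene that is high in tinWT. Just inside the limit were Nep2 (mean 4.002), CG31855 (4.001) and CG9747 (4.000), and just outside it were Gcn2 (3.999), Spn42Da (3.997) and CG46301 (3.996).

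The tinmDPE embryos came from 2 strains, F3 and M6, and the tinWT embryos from 1 strain, Cas9. All were aged at 25 °C and collected in windows of 0-2, 2-4, 4-6 and 6-8 h, and RNA was taken from whole dechorionated embryos. From its name, the genotype tinmDPE is taken to be a mutation in the DPE (downstream core promoter element) of the gene tinman (tin). The labels do not say whether F3 and M6 go back to separate edits, nor how many embryos entered a library. There was 1 csRNA library for each strain and window, so F3 and M6 are the only replicates of tinmDPE and tinWT has none at 0-2 h. A difference between genotypes was therefore also a difference between Cas9 and the other strains, and these cannot be told apart. Both lines were set against the same Cas9 library, so a difference shared by F3 and M6 is not 2 independent measurements of the genotype.

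Capped short RNA sequencing (csRNA-seq) collects short RNAs that carry a cap, whose 5′ ends mark where RNA polymerase II began. In the fly, the earliest hours of development run largely on RNA and protein loaded by the mother, and the zygotic genome is switched on in a first small wave and then a broad one. The genes of digestion, muscle contraction, cuticle and synapses are textbook markers of differentiated tissue late in embryogenesis and in the larva. A core promoter is the stretch around the start where the transcription machinery assembles, and its known elements include the TATA box upstream of the start, the initiator at the start and the DPE downstream of it. tin encodes a homeobox factor of the mesoderm that is needed for the heart, and its promoter is known for a DPE.

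The libraries of 0-2 h held 2823816 tags in F3, 2908161 tags in M6 and 2632187 tags in tinWT, at the low end of the range of 2632187 to 10553406 tags over the 12 csRNA libraries. The authors called 11533 start sites in F3, 11404 in M6 and 8913 in tinWT at 0-2 h. The median value over the 7022 genes was 6.96 in F3, 6.98 in M6 and 7.05 in tinWT. All values are the authors' rlog values, which are on a log2 scale and are shrunk towards each start site's own mean, so that differences of weak start sites are understated. Of 14 markers of the early embryo (gap genes, genes of cellularization and early mesoderm genes such as twi), 12 stood at 4 or more in F3, 12 in M6 and 13 in tinWT, with medians of 5.52, 6.27 and 5.88 in F3, M6 and tinWT. In these bulk libraries, fewer cells of a type and less RNA per cell cannot be told apart.

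The edited gene was examined first. The start site of tin (3R, 21378850 to 21379054, plus strand, dm6) had values of 4.76 in F3 and 4.66 in M6, against 5.48 in tinWT. Both tinmDPE libraries lay below the tinWT library. The difference was -0.77 ± 0.25 (SE, 2 tinmDPE libraries against 1 tinWT library), with an adjusted p of 0.402 by limma over all 45839 start sites, which did not pass 0.05. An exact permutation test over the 3 libraries gave p = 0.333, two-sided, the smallest that 3 libraries allow. The mean over the 3 start sites assigned to tin differed by -0.08. The values of tin in the later windows were lower in both lines too. They were 5.68 and 6.13 in F3 and M6, against 7.61 in tinWT, at 2-4 h. At 4-6 h they were 6.37 and 6.24, against 7.06, and at 6-8 h 7.12 and 6.96, against 7.45.

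The start of tin at position 21378979 lies in exon 1 within the annotated 5′ UTR, and its reference sequence is shown because this promoter is the one the strains' genotype names. The stretch is chr3R:21378939-21378984 on the plus strand of dm6, read from the RefSeq genome, from 40 bases before the start to 6 bases from it. Capitals mark the initiator, and no TATA box by the letters searched here lies at the usual distance upstream of it.
tin: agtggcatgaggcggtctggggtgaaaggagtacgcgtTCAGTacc
The 6 bases from +28 to +33 of tin are AGACAC in the reference, which holds the DPE letters AGAC at +28. The sequence carried by F3 and M6 was not analysed here.

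Gene by gene, the test found little at 0-2 h. Of the 45839 start sites, 8 were called higher in tinmDPE (0.0175%) and 130 lower (0.284%) at an adjusted p under 0.05 by limma. Of these 138 start sites, 12 were promoter rows and 34 lay above the 25th percentile of mean value, so most were weak sites. The spread in this test came from the distance between F3 and M6 over all windows. Among the 7022 genes, 0 were called higher and 1 was called lower. Without the adjustment, 526 genes (7.49%) were higher and 882 (12.6%) were lower at a p under 0.05, against 4.48% and 5.39% of all start sites. The number of calls rose when either tinmDPE library of 0-2 h was left out. Leaving one out also took the distance between F3 and M6 at 0-2 h out of the spread. The counts therefore do not show the effect of the library alone. Without F3, so that M6 alone stood against tinWT, 73 genes were called higher and 45 lower, and without M6 the counts were 8 and 3. In those fits the lone tinmDPE library was assumed to vary like the other groups.

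The 1 called gene was phr6-4, which encodes a (6-4)-photolyase, a light-driven DNA repair enzyme. Its start site (2L, 20645680 to 20645834, minus strand) had values of 5.65 in F3 and 5.81 in M6, against 8.16 in tinWT. The tinmDPE libraries lay close together and both more than 2 below tinWT, a difference of -2.43 ± 0.20 (SE, adjusted p = 0.0119 by limma). The call was lost with a variance prior fitted without a trend (adjusted p = 0.0581) and with only the 3 libraries of 0-2 h (adjusted p = 0.234), and the adjusted p ranged from 0.00663 to 0.234 over all alternatives. At 2-4 h the values of phr6-4 were 6.01 in F3 and 6.13 in M6, against 6.80 in tinWT. At 4-6 h they were 6.92 and 6.71 against 6.42, and at 6-8 h 6.93 and 6.81 against 7.13. The start of phr6-4 is shown because it is the only called promoter, and it has neither a TATA box nor an initiator by the letters searched here. It is chr2L:20645750-20645795 on the minus strand, 36 bases from the annotated start of the gene, in exon 1.
phr6-4: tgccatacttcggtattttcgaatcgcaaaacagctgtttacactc

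Differences of at least 1 in both lines were then counted as a description, with no test. They were found at 351 of the 7022 genes in the higher direction, which is 5.0%, against 3.49% of all start sites and 6.8% of all genes with a promoter row. In the lower direction they were found at 260 genes, which is 3.7%, against 3.44% of all start sites and 3.91% of genes with a promoter row. With F3 left out, M6 alone was at least 1 above tinWT at 912 genes and at least 1 below it at 880, and F3 alone at 405 and 413. Of the 611 shared differences 57.4% were higher, and centring each library on its median moved this share to 43.4%, with 301 higher and 392 lower. Centring also moved the median difference over all start sites to -0.14, against -0.01 as deposited. At 117 genes both lines were at least 2 above tinWT, and at 10 genes both were at least 2 below it. This balance rested on genes that were low in tinWT. Among genes at 4 or more in tinWT, a limit set after the values were seen, the counts were 25 and 17. That limit selects by the tinWT library alone and so favours genes that are lower in tinmDPE.

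**Figure D1:**
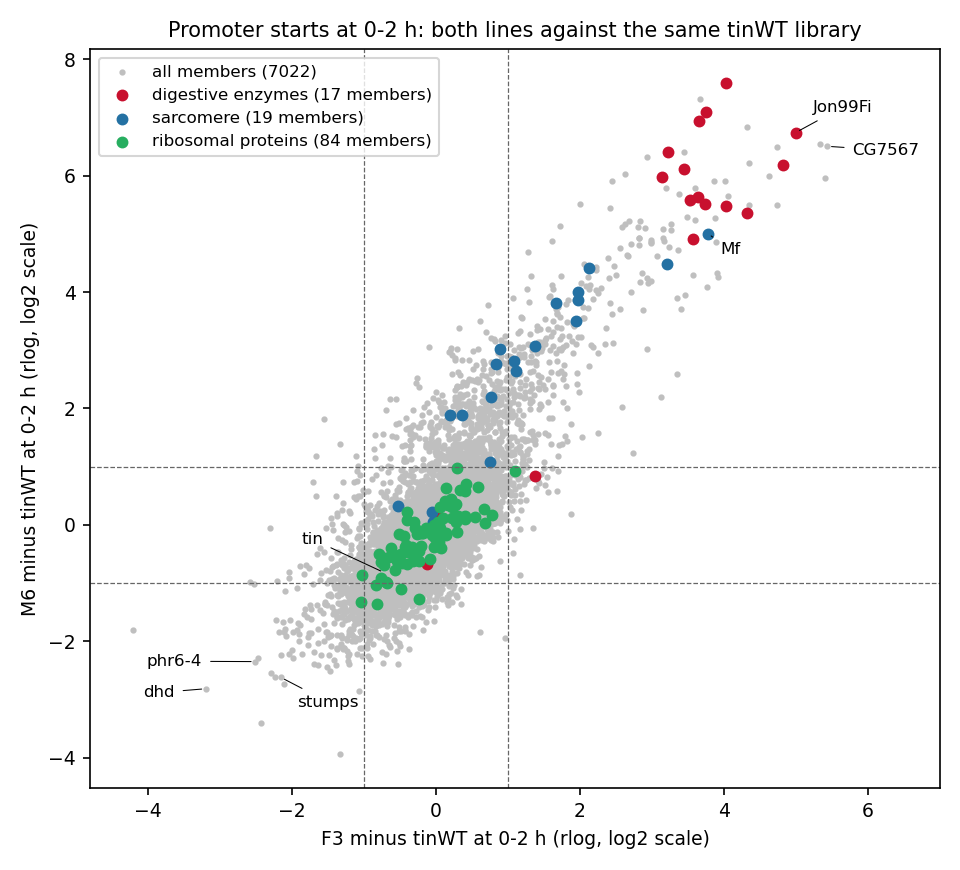
Each point is 1 of the 7022 genes, placed by its rlog value in F3 minus tinWT (x axis) and in M6 minus tinWT (y axis) at 0-2 h, both on the log2 scale and both against the same tinWT library. Dashed lines mark a difference of 1; digestive enzyme genes (red) reach past 7 in M6, sarcomere genes (blue) run along the upper arm, and ribosomal protein genes (green) stay near 0.

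The 351 genes that were higher in both lines were weak in tinWT. Their median value was 5.68 in F3 and 7.07 in M6, against 3.85 in tinWT, and 192 of them stood below 4 in tinWT. M6 was further from tinWT than F3 at 326 of the 351, against 4793 of the 7022 genes. The authors had called a start site at 298 of these promoters in F3, at 263 in M6 and at 133 in tinWT. At 134 a start site was called in both tinmDPE libraries but not in tinWT. Over the 7022 genes these counts were 5602, 5522, 5663 and 738. Of the 12 csRNA libraries, M6 at 0-2 h held the highest value at 273 genes and F3 at 0-2 h at 13. Over the 7022 genes the counts were 1034 and 1046. The 351 were chosen as high in these libraries, which favours such a result. When genes were required to stand at 4 or more in tinWT, 159 genes were higher by at least 1 in both lines and 308 were lower. That limit uses the tinWT library alone, so it admits a gene that is high in tinWT more readily than a gene that is high in tinmDPE.

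The 12 genes with the largest shared positive differences were led by CG7567 (3R, 29588025 to 29588175), with values of 9.94 in F3 and 11.00 in M6, against 4.50 in tinWT. CG6295 had 7.45 in F3 and 8.01 in M6, against 2.05 in tinWT. CG6933 had 10.22 in F3 and 11.43 in M6, against 4.89 in tinWT. The products of CG7567, CG6295 and CG6933 are not characterised in the annotation used here. Jon99Fi and Jon99Fii, neighbouring genes for chymotrypsin-like serine proteases of the gut, came next. Jon99Fi had 10.16 in F3 and 11.90 in M6, against 5.16 in tinWT. Jon99Fii had 10.63 in F3 and 11.99 in M6, against 5.81 in tinWT. In all of these genes both tinmDPE libraries lay above the tinWT library by more than 4.

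LManVI, which encodes an alpha-mannosidase, had 7.61 in F3 and 9.37 in M6, against 2.87 in tinWT. Amy-p, the proximal amylase gene that digests starch, had 10.61 in F3 and 11.65 in M6, against 6.29 in tinWT. The other 5 of the 12 carry only CG names. Their values in F3, M6 and tinWT were 7.42, 8.17 and 2.68 for CG11911, 6.47, 7.83 and 1.85 for CG15533, and 6.48, 8.35 and 2.13 for CG42728. They were 6.54, 7.69 and 2.20 for CG4563, and 7.27, 9.78 and 2.94 for CG15043. M6 was above F3 in all 12 genes. None of the 12 passed the adjusted threshold (adjusted p from 0.416 to 0.627 by limma). Their values also differed between F3 and M6 in other windows. CG7567 had 10.04 in F3 and 5.00 in M6 at 4-6 h, against 4.12 in tinWT, and 6.91 in F3 and 9.19 in M6 at 2-4 h, against 5.23 in tinWT.

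**Figure D2:**
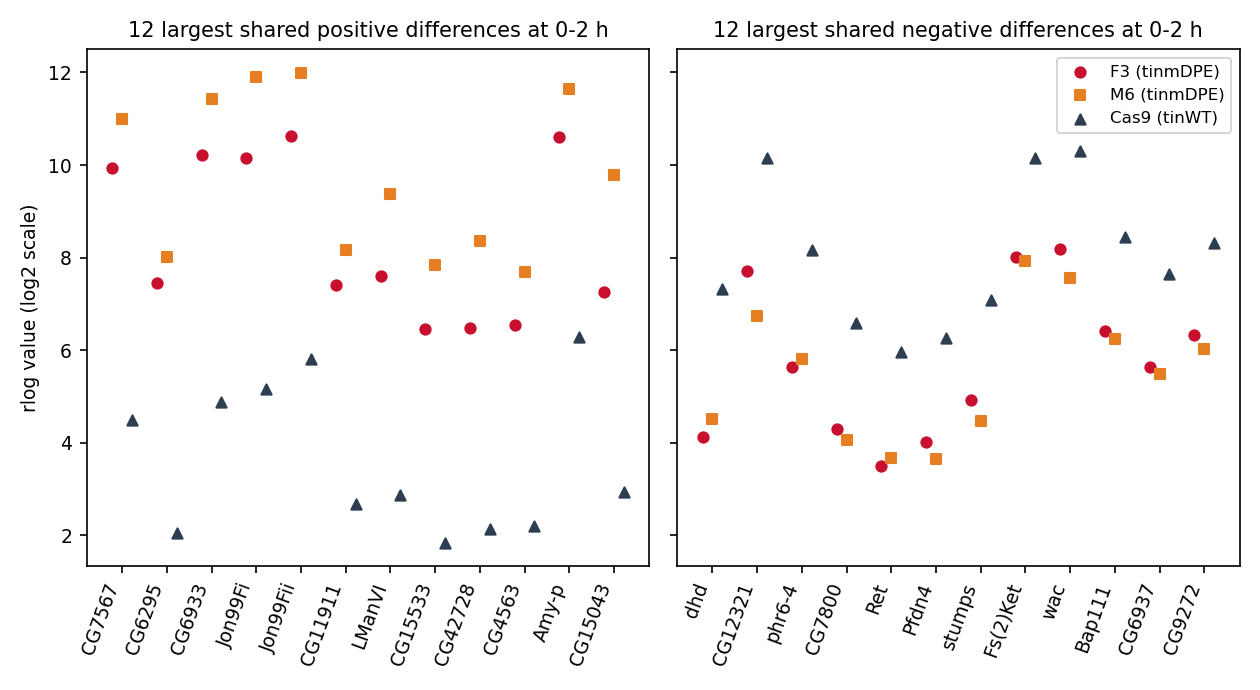
Values at 0-2 h (y axis, rlog, log2 scale) of the 12 genes with the largest shared positive differences (left) and the 12 with the largest shared negative differences (right), with 1 point per library. On the left both tinmDPE libraries stand above tinWT and M6 stands above F3 in every gene; on the right both tinmDPE libraries stand below tinWT and close together in most genes.

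Promoter sequences of 5 of these genes and of 3 further high genes from the lists described next are given because a TATA box was common among the genes with the largest differences. Each runs from 40 bases before the start to 6 bases from it, on the strand of the gene, in dm6 coordinates and from the RefSeq genome. Capitals mark TATAAA where it starts between -33 and -28, and the initiator TCAGT where it lies at the start. CG7567 is chr3R:29588095-29588140 (minus), CG6295 is chr3R:27007050-27007095 (minus), Jon99Fi is chr3R:30488925-30488970 (plus), Jon99Fii is chr3R:30487920-30487965 (minus) and LManVI is chr2L:8781246-8781291 (minus). Mhc is chr2L:16766699-16766744 (plus), Lcp65Ag3 is chr3L:6130981-6131026 (minus) and Mf is chr3R:15180263-15180308 (minus). The starts of all 8 lie in exon 1 within an annotated 5′ UTR.
CG7567: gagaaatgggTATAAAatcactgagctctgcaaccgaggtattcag
CG6295: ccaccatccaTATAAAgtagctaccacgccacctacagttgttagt
Jon99Fi: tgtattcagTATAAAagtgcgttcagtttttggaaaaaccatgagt
Jon99Fii: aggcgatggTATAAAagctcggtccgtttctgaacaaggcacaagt
LManVI: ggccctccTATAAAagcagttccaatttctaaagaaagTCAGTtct
Mhc: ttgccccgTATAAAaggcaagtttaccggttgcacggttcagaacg
Lcp65Ag3: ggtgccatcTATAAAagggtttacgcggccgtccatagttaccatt
Mf: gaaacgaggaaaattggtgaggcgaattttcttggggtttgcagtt
Mf holds no TATAAA at -33 to -28, and neither does Jon25Bi, a gut protease gene described next, so the promoters shown are examples and not a count.

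The letters were then counted over all promoters on the transcribed strand. A TATA box was TATAAA or TATATA starting at -33 to -28, and it was present at 72 of the 351 genes (20.5%) that were higher in both lines and at 53 of the 117 (45.3%) that were higher by at least 2. It was present at 19 of the 260 genes (7.31%) that were lower in both lines, at 4.84% of the 7022 genes and at 6.54% of 10705 genes with a promoter row and a sequence. Promoters that stood below 4 in tinWT and were not at least 1 higher in both lines held it at 8.68% (285 of 3283), against 22.3% (127 of 569) for those below 4 that were higher. The initiator, TCAGT or TCATT with its A as the first transcribed base, was present at 40.7% of the 351, 27.4% of the 117, 12.3% of the 260 and 18.8% of the 7022. The DPE letters were A or G, then G, then A or T, then C or T, starting at +28. An initiator together with this DPE was present at 10.3% of the 351, 3.42% of the 117, 4.62% of the 260 and 6.27% of the 7022. Among promoters below 4 in tinWT this joint share was 8.26% for those that were higher and 6.00% for the others. The joint share depends on the initiator share. Of promoters with an initiator, 36 of 143 in the 351 held this DPE, and 4 of 32 in the 117. In the 260 it was 12 of 32, and in the 7022 it was 440 of 1323. None of the 3 elements overlaps another. These shares describe letters at fixed distances and were not tested.

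Digestive enzyme genes made up the list with the highest median difference of the 15 examined. The lists were chosen with earlier results of these data known, so their ranks and shares are a description. Of 37 genes for Jonah proteases, trypsins, maltases, amylase, mannosidases and lysozymes, 25 were higher by at least 1 in both lines (67.6%, against 6.8% of all genes with a promoter row) and 0 were lower. Their median difference was +2.84, with +2.06 in F3 and +3.57 in M6, against -0.02 over all genes with a promoter row. The median level was 3.40 in F3 and 5.09 in M6, against 1.02 in tinWT. By limma at an unadjusted p under 0.05, 10 of the 37 were higher and 0 were lower, and 0 were called after adjustment. Over all genes with a promoter row, 7.61% were higher and 9.98% lower at this p, the shares behind the counts of every list. For differences of at least 1 in both lines, the shares behind every list were 6.8% higher and 3.91% lower. Of the 37, 17 belonged to the 7022 genes and 20 had a mean below 4 in the 3 libraries.

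Among the trypsins, alphaTry had 6.53 in F3 and 9.82 in M6, against 2.88 in tinWT. epsilonTry had 5.44 in F3 and 8.78 in M6, against 1.68 in tinWT. Jon25Bi had 8.31 in F3 and 11.88 in M6, against 4.29 in tinWT, and Jon65Ai had 7.15 in F3 and 8.60 in M6, against 3.12 in tinWT. The lysozyme genes LysB and LysE had 4.76 and 7.40 in F3, 6.53 and 10.24 in M6, and 1.02 and 4.27 in tinWT. In each of these genes M6 was higher than F3, and both were higher than tinWT. The list was not uniform. LManII, a mannosidase gene of the list, had 8.82 in F3 and 8.97 in M6, against 8.80 in tinWT. The mannosidase genes LManV and LManVI were not part of the list. Mal-A5, a maltase gene, had 6.73 in F3 and 6.19 in M6, against 6.86 in tinWT. Jon74E was high in M6 alone, with 0.37 in F3 and 6.56 in M6, against 0.41 in tinWT.

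Sarcomere genes, which build the contractile unit of muscle, formed the list with the second highest median. Of 24 genes, 11 were higher by at least 1 in both lines (45.8%, against 6.8% of all genes with a promoter row) and 0 were lower. To any extent, 17 were above tinWT in both lines and 0 below, against 3282 and 4679 of the 10709 genes with a promoter row. The median difference was +1.84, with +0.87 in F3 and +2.70 in M6. The median level was 6.45 in F3 and 8.04 in M6, against 5.09 in tinWT. Mf, which encodes myofilin of the thick filament, had 7.30 in F3 and 8.52 in M6, against 3.52 in tinWT. Mhc, the muscle myosin heavy chain, had 7.72 in F3 and 9.74 in M6, against 5.75 in tinWT. Zasp66, a protein of the Z-disc, had 6.31 in F3 and 7.56 in M6, against 3.09 in tinWT. Mlp60A, a muscle LIM protein, had 7.06 in F3 and 9.35 in M6, against 4.94 in tinWT.

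Both tinmDPE libraries lay above tinWT in these 4 genes, with M6 the higher of the pair. Other genes of the list, named after their values were seen, differed little. Tm1, a tropomyosin gene, had 8.09 in F3 and 8.19 in M6, against 8.14 in tinWT. Zasp52 had 9.58 in F3 and 9.85 in M6, against 9.64 in tinWT. Of the 24 genes, 4 were higher at an unadjusted p under 0.05 by limma and 0 were called.

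Cuticle protein genes were mostly close to the floor in all 3 libraries, with median levels of 0.53 in F3, 1.74 in M6 and 0.37 in tinWT over 66 genes. Only 8 of the 66 belonged to the 7022 genes. Of the 66, 13 were higher by at least 1 in both lines (19.7%, against 6.8% of all genes with a promoter row) and 0 were lower. The median difference was +0.59, which came from M6 (+0.84) and not from F3 (-0.01). Lcp65Ag3 had 7.60 in F3 and 10.19 in M6, against 4.40 in tinWT, Lcp65Ag2 had 9.78 and 12.08 against 6.97, and Lcp65Ag1 had 7.47 and 10.87 against 6.19. The first 50 transcribed bases of these 3 neighbouring genes are 84% to 92% identical, so reads may be shared among them and their single values are uncertain. Jon99Fi and Jon99Fii are 68% identical over the same stretch, and LysB and LysE 66%. TwdlN, of the Tweedle family of cuticle proteins, had 8.38 in F3 and 9.20 in M6, against 5.51 in tinWT. Of the 66 cuticle genes 9 were higher and 1 lower at an unadjusted p under 0.05 by limma, and 0 were called.

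Genes of chitin, its modification and mucins followed the same order in part. Of 24 genes, 5 were higher by at least 1 in both lines (20.8%, against 6.8% of all genes with a promoter row) and 0 were lower. The median difference was -0.02 in F3 and +0.76 in M6. Muc18B, a mucin gene, had 7.96 in F3 and 10.27 in M6, against 4.59 in tinWT. Muc55B had 4.73 in F3 and 6.08 in M6, against 1.37 in tinWT. obst-E, a chitin-binding protein of the cuticle, had 4.88 in F3 and 6.72 in M6, against 2.48 in tinWT. Mur18B had 4.63 in F3 and 6.57 in M6, against 2.70 in tinWT. Chitin synthase kkv, in contrast, had 8.55 in F3 and 8.90 in M6, against 8.32 in tinWT. The chitin deacetylase serp had 7.15 in F3 and 8.76 in M6, against 9.74 in tinWT. In limma, at p under 0.05 without adjustment, 3 of the 24 were higher and 1 was lower, and 0 were called.

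Neuronal and synaptic genes were higher in M6 more than in F3. The median difference over 24 genes was -0.02 in F3 and +1.52 in M6. Of the 24, 5 were higher by at least 1 in both lines (20.8%, against 6.8% of all genes with a promoter row) and 0 were lower. ChAT, the enzyme that makes acetylcholine, had 4.02 in F3 and 5.58 in M6, against 1.76 in tinWT. Nrx-1, a synaptic adhesion protein, had 3.87 in F3 and 5.18 in M6, against 1.77 in tinWT. brp, a scaffold of the presynaptic active zone, had 5.42 in F3 and 7.03 in M6, against 5.44 in tinWT, so that only M6 stood apart. elav, a general neuronal gene, had 7.04 in F3 and 7.60 in M6, against 7.26 in tinWT. At an unadjusted p under 0.05 by limma 3 of the 24 were higher and 1 was lower, and 0 were called. The Osiris genes did not share this pattern. Of 9, 0 were higher and 2 (Osi6 and Osi7, at 1.42 and 3.83 in tinWT) were lower by at least 1 in both lines, and 1 was higher and 2 lower at an unadjusted p under 0.05, with 0 called by limma.

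**Figure D3:**
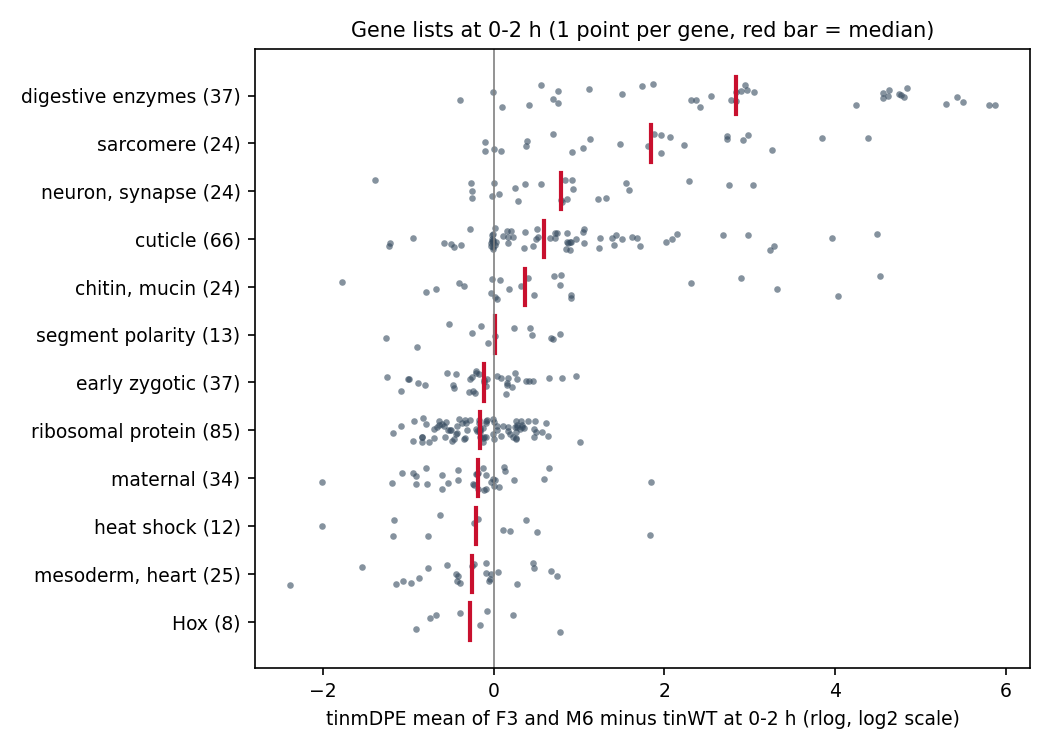
Differences at 0-2 h for 12 gene lists (x axis, mean of F3 and M6 minus tinWT, rlog on the log2 scale), with 1 point per gene with a promoter row and the median as a red bar; numbers of genes are in parentheses. Digestive and sarcomere genes spread to the right with medians of 2.84 and 1.84, while the lists from segment polarity down centre near 0.

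These lists of differentiated tissue, the Osiris genes included, were also the marker lists for late embryo or larva, and their part in the other differences between the genotypes was not tested. Whether animals older than the window of 0-2 h entered the libraries was not tested. The eggshell and yolk list, the marker of ovary tissue, had 4 genes with a promoter row, 0 of them among the 7022 genes. Its median was below 0 in all 3 libraries, -0.64 in F3, -0.87 in M6 and -0.62 in tinWT. Of the 4 genes, 1 stood at 4 or more in tinWT and 0 in F3 or M6. All 4 were below tinWT in both lines, 1 of them by at least 1 (against 3.91% of genes with a promoter row). At an unadjusted p under 0.05 by limma 1 was lower and 0 higher, and 0 were called.

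The choice of the 351 genes did not use the libraries of the other windows. There the medians of the 351 were 5.14 in F3 and 5.60 in M6, against 4.20 in tinWT, at 2-4 h. At 4-6 h they were 5.62 and 3.95 against 4.13, and at 6-8 h 4.82 and 4.91 against 4.33. The lists, which include genes outside the 351, were also uneven between F3 and M6. The digestive list had medians of 1.35 in F3 and 3.23 in M6, against 0.89 in tinWT, at 2-4 h. At 4-6 h the medians were 3.49 in F3 and 0.67 in M6, against 1.01 in tinWT, and at 6-8 h 1.44 and 0.85 against 0.76. The order of F3 and M6 was thus opposite at 2-4 and 4-6 h. The sarcomere list had medians of 6.47 in F3 and 7.23 in M6, against 5.48 in tinWT, at 2-4 h. At 4-6 h they were 7.22 and 4.15 against 4.66, and at 6-8 h 5.84 and 6.35 against 4.90. M6 at 4-6 h lay below tinWT for both lists.

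Of the 351 genes, 126 (35.9%) were also higher by at least 1 in both lines at 2-4 h, 43 (12.3%) at 4-6 h and 92 (26.2%) at 6-8 h. For comparison, this rule held at 10.2%, 5.98% and 3.12% of the 7022 genes in these windows, and at 3.0%, 2.5% and 1.55% of all start sites. At 4-6 h F3 was higher by at least 1 at 200 of the 351 and M6 at 52. Of the 260 genes that were lower in both lines at 0-2 h, 8 (3.08%) were lower in both at 2-4 h, 30 (11.5%) at 4-6 h and 26 at 6-8 h, against 1.79%, 3.22% and 1.31% of the 7022 genes and 6.31%, 4.72% and 1.8% of all start sites.

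**Figure D4:**
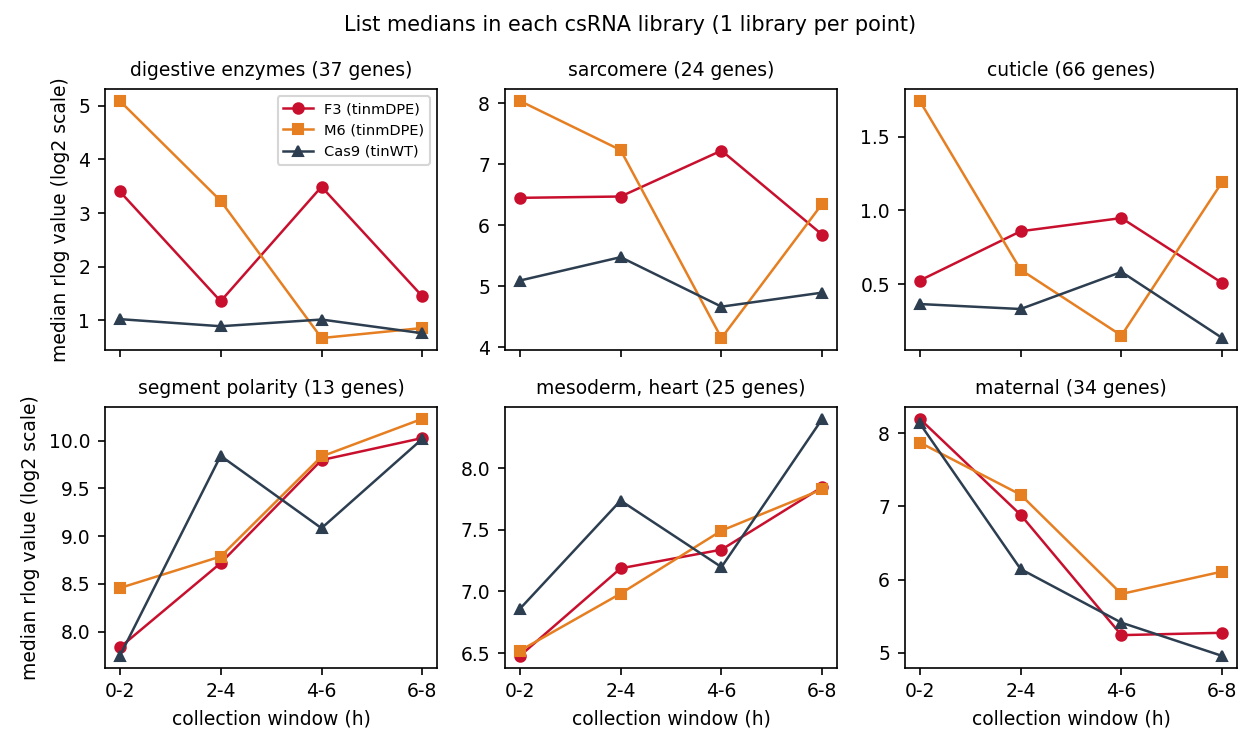
Median rlog value (y axis, log2 scale, separate range per panel) of 6 gene lists in each csRNA library against collection window (x axis), with 1 library per point. In the digestive and sarcomere panels both tinmDPE lines start above tinWT at 0-2 h, M6 has its lowest value at 4-6 h where F3 has its highest, and tinWT moves least; in the maternal panel all 3 strains are lower at 6-8 h than at 0-2 h.

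Whether the high genes rise between 2-4 h and 6-8 h was asked with a class that used no library of 0-2 h. A gene was later-stage where its mean over the 3 strains was at least 2 higher at 6-8 h than at 2-4 h, and earlier-stage where it was at least 2 lower. The class cannot hold a gene that comes on only after 8 h. Its 2-4 h mean includes F3 and M6, where the 351 genes had medians of 5.14 and 5.60, against 4.20 in tinWT. It therefore cannot decide whether the high genes come on later in development. Of 80 later-stage genes, 2 were higher by at least 1 in both lines (2.5%) and 6 were lower (7.5%). Of 182 earlier-stage genes, 9 were higher (4.95%) and 7 lower (3.85%), and of the other 6760 genes 340 (5.03%) and 247 (3.65%). The median difference was -0.12 in later-stage genes, -0.10 in earlier-stage genes and -0.12 in the rest. In later-stage genes it was -0.35 in F3 and +0.17 in M6. With the class taken from F3 and M6 without tinWT, the medians were +0.18 in later-stage genes and -0.20 in earlier-stage genes. In either direction 12 of the 80 later-stage genes (15.0%) passed an unadjusted p under 0.05 by limma, against 17.0% of earlier-stage genes, 20.2% of the other genes and 9.87% of all start sites, and 0 later-stage genes were called. Seen from the other side, 2 of the 351 genes that were higher at 0-2 h were later-stage and 9 were earlier-stage.

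The 2 later-stage genes that were higher were shd and cdc14, both named after their values were seen. shd, which encodes the cytochrome P450 that makes the active moulting hormone, had 5.75 in F3 and 5.81 in M6, against 4.24 in tinWT. At 6-8 h shd reached 7.61 in F3 and 7.03 in M6, against 7.41 in tinWT. cdc14, a phosphatase of the cell cycle, had 6.94 in F3 and 7.23 in M6, against 5.60 in tinWT. F3 and M6 lay close together in both genes. Differences were 1.54 ± 0.40 for shd (SE, adjusted p = 0.316 by limma) and 1.48 ± 0.40 for cdc14 (SE, adjusted p = 0.328 by limma).

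The 6 later-stage genes that were lower included 2 of the early nervous system. wor, a Snail-family factor of neuroblasts, had 7.47 in F3 and 7.45 in M6, against 8.59 in tinWT. insb, a nuclear co-repressor in the Notch pathway, had 6.94 in F3 and 5.82 in M6, against 8.03 in tinWT. The others were E(spl)mgamma-HLH, CG4194, Sans and otk. Among earlier-stage genes, scw, a BMP ligand of the blastoderm, had 9.50 in F3 and 9.61 in M6, against 8.15 in tinWT (difference 1.40 ± 0.17, SE, adjusted p = 0.0573 by limma). mute, a gene of the histone locus body, had 5.48 in F3 and 5.92 in M6, against 4.40 in tinWT. hrg, a poly(A) polymerase gene, had 5.83 in F3 and 5.68 in M6, against 7.60 in tinWT, and wisp, a cytoplasmic poly(A) polymerase gene of the egg, had 7.48 in F3 and 6.91 in M6, against 8.59 in tinWT.

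**Figure D5:**
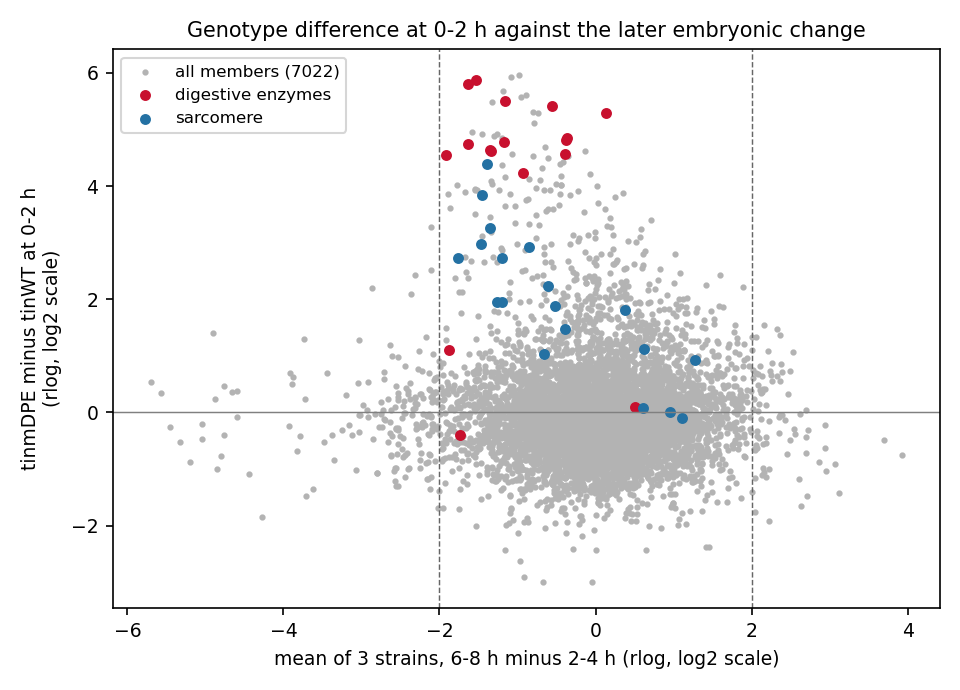
Each point is 1 of the 7022 genes, placed by the mean of the 3 strains at 6-8 h minus 2-4 h (x axis, log2 scale, no library of 0-2 h used) and by the difference of tinmDPE minus tinWT at 0-2 h (y axis, log2 scale). Digestive (red) and sarcomere (blue) genes with high differences lie between the dashed lines at -2 and 2, mostly left of 0, and of the 80 genes right of 2, 2 are at least 1 higher and 6 at least 1 lower in both lines.

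The 260 genes that were lower in both lines had median values of 6.03 in F3 and 5.75 in M6, against 7.53 in tinWT. tinWT at 0-2 h held the highest value of the 12 libraries at 196 of them, against 1983 of the 7022 genes. The 260 were chosen as high in that library, which favours such a result. The authors had called a start site at 161 in F3, at 160 in M6 and at 221 in tinWT, and at 43 in tinWT alone. Over the 7022 genes these counts were 5602, 5522, 5663 and 297. The median distance between F3 and M6 was 0.28 in these 260 genes and 1.32 in the 351 that were higher.

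The largest shared negative difference was at dhd (X, 5312284 to 5312434), a thioredoxin of the female germline, with 4.14 in F3 and 4.52 in M6, against 7.33 in tinWT. In later windows dhd was near the floor apart from M6 at 2-4 h, where it had 4.11 against 0.77 in F3 and 0.95 in tinWT. CG12321 had 7.71 in F3 and 6.74 in M6, against 10.14 in tinWT. CG7800 had 4.30 in F3 and 4.06 in M6, against 6.60 in tinWT, a difference of -2.42 ± 0.29 (SE) whose adjusted p by limma was 0.0531. Ret, a receptor tyrosine kinase, had 3.50 in F3 and 3.67 in M6, against 5.96 in tinWT. Pfdn4, a subunit of the prefoldin chaperone, had 4.02 in F3 and 3.65 in M6, against 6.26 in tinWT.

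stumps, the adaptor of the FGF receptor in mesoderm cells, had 4.93 in F3 and 4.47 in M6, against 7.09 in tinWT. This start site (3R, 14591470 to 14591693) lies 14401 bases inside the gene's outermost annotated start, and its position is 2 bases from the start of a shorter annotated transcript. At 2-4 h its values were 5.56 in F3 and 6.59 in M6, against 6.45 in tinWT, so M6 lay close to tinWT and F3 below both. Fs(2)Ket, the importin beta of nuclear import, had 8.01 in F3 and 7.93 in M6, against 10.16 in tinWT. wac, a subunit of the augmin complex of the mitotic spindle, had 8.19 in F3 and 7.57 in M6, against 10.30 in tinWT.

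For 4 of the 12 genes, named after their values were seen, both lines were also lower by at least 1 in some later window. Bap111, a subunit of the Brahma chromatin remodelling complex, had 6.41 in F3 and 6.23 in M6, against 8.45 in tinWT. At 2-4 h Bap111 had 5.78 and 5.94 in F3 and M6 against 6.95 in tinWT, at 4-6 h 4.82 and 5.39 against 7.51, and at 6-8 h 5.18 and 4.96 against 7.40. CG6937 had 5.64 in F3 and 5.49 in M6, against 7.64 in tinWT, and was below tinWT by more than 1 in both lines in every window, with 4.58 and 4.00 in F3 and M6 against 6.35 in tinWT at 6-8 h. CG9272 had 6.32 in F3 and 6.04 in M6, against 8.31 in tinWT, and at 4-6 h 3.64 and 3.62 against 6.31. At 2-4 h CG9272 went the other way, with 5.51 in F3 and 6.14 in M6, against 4.97 in tinWT. CG12321 had the same order, with 6.95 in F3 and 6.85 in M6, against 4.83 in tinWT, at 2-4 h, and 5.23 and 4.76 against 7.18 at 4-6 h. The difference at 0-2 h less that in the other windows was 0.03 for CG6937 and -0.18 for Bap111, against -2.23 for phr6-4 (adjusted p = 0.985, 0.943 and 0.0469 by limma, which called 0.177% of all start sites lower in this test).

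Mesoderm and heart genes, the field in which tin acts, included 3 of 25 that were lower by at least 1 in both lines (against 3.91% of genes with a promoter row) and 0 that were higher. Their median difference was -0.25, with -0.34 in F3 and -0.12 in M6. Besides stumps these were bap, an NK homeobox factor of the visceral mesoderm, and Him, a mesodermal gene that holds back muscle differentiation. bap had 1.99 in F3 and 2.36 in M6, against 3.72 in tinWT, and Him had 2.23 and 2.21 in F3 and M6 against 3.37 in tinWT, both below the limit of 4. The main mesoderm factors differed less. twi had 4.81 in F3 and 5.48 in M6, against 4.69 in tinWT, and Mef2 had 8.69 in F3 and 9.15 in M6, against 8.45 in tinWT. The FGF receptor gene htl had 8.77 in F3 and 8.89 in M6, against 8.92 in tinWT. In limma, at p under 0.05 without adjustment, 6 of the 25 were lower and 1 was higher, and 0 were called.

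Genes that the mother loads into the egg had a median difference of -0.19, and 1 of 34 was higher and 2 were lower by at least 1 in both lines. me31B, a DEAD-box helicase of RNA granules, had 10.73 in F3 and 9.96 in M6, against 12.36 in tinWT. plu, a subunit of the pan gu kinase complex, had 5.29 in F3 and 5.20 in M6, against 6.44 in tinWT. ndl, a protease of the dorsal-ventral pathway made in the ovary, had 4.01 in F3 and 3.82 in M6, against 2.07 in tinWT. bcd had 8.97 in F3 and 8.62 in M6, against 8.91 in tinWT, and nos had 8.38 in F3 and 7.77 in M6, against 8.11 in tinWT. For bcd and nos F3 was above tinWT and M6 below it. At an unadjusted p under 0.05 by limma 1 of the 34 was higher and 2 were lower, and 0 were called.

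The first zygotic genes were close in the 3 libraries. Of 37 genes of the blastoderm 0 were higher and 1 was lower by at least 1 in both lines. The median difference was -0.12, against -0.02 over all genes with a promoter row and -0.12 over the 7022 genes. The gap gene Kr had 11.11 in F3 and 10.97 in M6, against 11.25 in tinWT. eve, a pair-rule gene, had 8.13 in F3 and 8.74 in M6, against 8.06 in tinWT. zen, a factor of the dorsal side, was the gene that was lower, with 2.70 in F3 and 3.06 in M6, against 4.14 in tinWT. By limma at an unadjusted p under 0.05, 2 of the 37 were higher and 2 lower, and 0 were called.

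Among 13 segment polarity genes 0 were higher and 1 was lower, and their median difference of 0.01 became -0.11 with centring. The gene that was lower, nkd, an inhibitor of Wnt signalling, had 11.21 in F3 and 11.03 in M6, against 12.39 in tinWT. The ligand gene wg had 11.62 in F3 and 11.65 in M6, against 11.21 in tinWT. Among 8 Hox genes 0 passed in either direction, with Ubx at 6.10 in F3 and 6.05 in M6, against 6.82 in tinWT. In limma, at p under 0.05 without adjustment, 1 segment polarity gene was higher and 3 were lower, 1 Hox gene was lower, and 0 were called in either list.

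Ribosomal protein genes had a median difference of -0.16 over 85 genes, and 0 were higher and 1 was lower by at least 1 in both lines. RpS3A had 13.17 in F3 and 12.90 in M6, against 14.21 in tinWT. At an unadjusted p under 0.05 by limma 15 of the 85 were lower (17.6%, against 9.98% of all genes with a promoter row and 12.6% of the 7022) and 0 higher, and 0 were called. Among 12 heat shock genes stv, a co-chaperone of the BAG family, was higher, with 8.01 in F3 and 9.53 in M6, against 6.93 in tinWT. Hsp70Ab was lower, with 4.05 in F3 and 3.91 in M6, against 5.15 in tinWT, and so was Hsp68. Of these 12 genes 2 were higher and 2 lower at an unadjusted p under 0.05 by limma, and 0 were called. Of 9 immune genes PGRP-LB, a peptidoglycan amidase that tempers the immune response, had 4.34 in F3 and 5.54 in M6, against 2.32 in tinWT. PGRP-SB1 was also higher and AttD lower by at least 1 in both lines, 1 of the 9 was higher and 1 lower at an unadjusted p under 0.05, and 0 were called by limma.

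Notch pathway targets of the Enhancer of split and Bearded complexes were examined as a list chosen after their values were seen. Of 14 genes, 4 were lower by at least 1 in both lines and 0 higher, against 3.91% and 6.8% of genes with a promoter row. To any extent, 12 were below tinWT in both lines and 1 above, against 4679 and 3282 of the 10709 genes with a promoter row. The median difference was -0.93, with -0.99 in F3 and -0.88 in M6. E(spl)mgamma-HLH, a transcriptional repressor, had 9.54 in F3 and 9.24 in M6, against 11.31 in tinWT. E(spl)m5-HLH had 3.82 in F3 and 3.46 in M6, against 5.68 in tinWT. Of the Bearded family, Ocho had 7.83 in F3 and 7.85 in M6, against 9.73 in tinWT, and BobA had 3.65 in F3 and 3.78 in M6, against 5.59 in tinWT. F3 and M6 lay closer to each other than to tinWT in each of these 4 genes. By limma at an unadjusted p under 0.05, 6 of the 14 were lower and 0 higher, and 0 were called.

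F3 and M6 themselves were not alike at 0-2 h. M6 was higher than F3 by at least 1 at 704 of the 7022 genes (10.03%), and F3 was higher than M6 by at least 1 at 168 (2.39%). The genes that were high in both lines were mostly on the side where M6 is higher, since M6 exceeded F3 in 326 of the 351.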

How the data were processed

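The csRNA-seq libraries of the 3 strains were analysed, and the input libraries were not used here. Submitters' processing notes name HOMER, STAR 2.7.10a and edgeR with the build dm6, without their roles. With HOMER the authors merged the strand-specific start sites of 12 csRNA libraries, and deposited for each site a score and a position per library, per the file headers. They then deposited rlog values on a log2 scale, made over the 12 libraries together from tags on the same strand, per the file headers. Counts per start site were not used here, and the total tags per library come from the file headers. As a check of the column names, the sites that only 1 library called were highest, on average, in the column named for it, in 12 of 12 cases. No column of values was left out.

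The log2 values of all 45839 start sites were fitted with limma 3.58.1 in R 4.3.3 as group means of genotype and window (lmFit and eBayes with a trend). The tinmDPE minus tinWT difference at 0-2 h was taken as a contrast, with Benjamini-Hochberg adjustment over all rows and a threshold of 0.05. With 1 tinWT library, the spread came from F3 against M6, and p-values measure only the spread between these libraries. In data simulated for this contrast over 45839 rows, a shift of 2 was recovered at 56 of 200 rows with 0 false calls, a shift of 4 at 184 of 200 with 5 false calls, and no shift gave 0 calls.

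F3 and M6 share replicate numbers across windows, and a fit with strain as correlated block was an alternative. Genes named are tin, the 12 largest shared differences in each direction, called genes and up to 4 genes per list with a shared difference of at least 1. Other genes named beside counts were chosen after their values were seen. The genes compared, the gene lists and the rules were chosen with earlier results of these data known. Sequences are from RefSeq, at the file's start position, and exons are from Ensembl. Other settings tried were quantile normalization, centring, other filters and sizes, other stage classes, a prior without trend, only the 3 libraries of 0-2 h, and leaving out F3 or M6.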

Additional observations from a re-analysis of the deposited data

Results flagged for a closer look

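The difference of phr6-4 at 0-2 h was larger in size than in the other windows. The gene had been called at 0-2 h from the same values, so this contrast is not separate support for that call. It was fitted under the main setting only. The difference at 0-2 h less the mean difference in the 3 other windows was -2.232, with an adjusted p of 0.0469 by limma over all 45839 start sites, of which 81 (0.177%) were called lower at 0-2 h in this test. The values of phr6-4 were 5.65 in F3 and 5.81 in M6, against 8.16 in tinWT, at 0-2 h, and in the other windows the 3 strains lay within 1 of each other. The contrast rests on 1 tinWT library, and what made that library high was not tested.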

How the results depend on the processing

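Calls among the 7022 genes moved with the setting. Genes called higher numbered 0 as deposited, 2 with quantile normalization, 1 with centring and 8 to 73 when M6 or F3 was left out. Genes called lower numbered 1 as deposited, 2 with centring, 0 without a trend in the variance prior, 0 with only the 3 libraries of 0-2 h and 3 to 45 when M6 or F3 was left out. With strain as a correlated replicate block the counts were 0 higher and 1 lower, and no call changed. Shared differences of at least 1 numbered 351 higher and 260 lower. The higher count became 229 with a minimum mean of 5, 117 with a size of 2, 159 with 4 or more in tinWT, 25 with both of these and 540 with 4 or more in any library of 0-2 h (these 3 added after the values were seen), and 405 to 912 when M6 or F3 was left out. The lower count became 392 with centring, 10 with a size of 2, 17 with a size of 2 and 4 or more in tinWT, and 413 to 880 when M6 or F3 was left out. Centring moved list medians by the shift of all rows, to -0.24 for early zygotic, -0.41 for Hox, -0.11 for segment polarity, -0.33 for heat shock, -0.28 for ribosomal and -1.05 for Enhancer of split and Bearded genes, and quantile normalization moved the ribosomal median to -0.043. The medians for M6 alone and F3 alone, in that order, were -0.023 and -0.47 for Osiris, -0.11 and -0.16 for early zygotic, -0.34 and -0.15 for maternal, -0.24 and -0.35 for heat shock and 0.43 and -0.019 for immune genes. Of single named genes, 377 gene-by-setting values kept their side of the threshold, 5 passed it in a direction they already had and 2 lost it, both phr6-4. CG7800 passed with centring and without F3 or M6, and CG12321 and me31B without F3. The cause of these moves was not tested. The depth was 2632187 to 2908161 tags at 0-2 h, with a single tinWT library.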

Other observations

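Further gene families were picked by symbol after their values were seen, and their counts are given without a test. Of 54 cytochrome P450 genes with a promoter row, 16 were higher by at least 1 in both lines at 0-2 h and 1 was lower, with a median difference of +0.97. Cyp9f2 had 6.17 in F3 and 8.09 in M6, against 4.04 in tinWT, and Cyp6a23 had 8.20 in F3 and 9.50 in M6, against 6.85 in tinWT. Of 26 UDP-glycosyltransferase genes, which act with the cytochromes in detoxification, 6 were higher and 0 were lower. Ugt36E1 had 6.45 in F3 and 5.53 in M6, against 3.32 in tinWT, which is 1 of the few cases with F3 above M6. Of 9 alkaline phosphatase genes 3 were higher and 0 lower, among them Alp10 with 5.65 in F3 and 9.30 in M6, against 1.99 in tinWT. Over all genes with a promoter row, 6.8% were higher and 3.91% were lower.

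Genes for neuronal surface proteins were counted in the same way. Of 42 genes of the beaten path, dpr and DIP families, 11 were higher by at least 1 in both lines and 0 lower, with a median difference of +1.05. Of 10 nicotinic acetylcholine receptor subunit genes 3 were higher and 1 lower. nAChRalpha3 had 7.20 in F3 and 8.37 in M6, against 4.75 in tinWT, and nAChRalpha7 had 5.37 in F3 and 5.58 in M6, against 4.13 in tinWT. In the other direction, 7 of 69 mitochondrial ribosomal protein genes were lower and 1, mRpL4, was higher. Their median difference was -0.38, with -0.22 in F3 and -0.51 in M6. Of 16 proteasome core subunit genes 2 were lower and 0 higher, and Prosalpha7 had 8.24 in F3 and 8.09 in M6, against 9.88 in tinWT. By limma 0 of the genes in these families named here were called after adjustment (adjusted p from 0.144 to 0.497).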
